A study of Mus musculus with 20 samples.

Results

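The 10 genes described here take heme apart, make it, and move or store the iron it carries: Hmox1, Hmox2, Blvra, Blvrb, Fth1, Ftl1, Tfrc, Slc40a1, Alas1 and Hpx. They were chosen by gene name from the array annotation, are 10 of the 27827 gene names on the array, and are read by 12 of its 41174 probes. Kidney RNA of male C57BL/6 mice aged 8 to 12 weeks was hybridised to 20 one-colour Agilent arrays, 4 in each of 5 groups. Control mice had no surgery and no protective treatment. IRI (ischemia-reperfusion injury) mice had both renal pedicles clamped for 45 minutes and were killed after 6 hours of reperfusion. IRI+Hemin mice had the same injury 24 hours after an intraperitoneal injection of Hemin at 25 mg/kg, which was given to induce Hmox1. IPC+IRI mice had an earlier clamping of both pedicles for 15 minutes (ischemic preconditioning), 7 days before the injury. Hemin mice had the injection and no surgery. All groups are wild-type animals of the strain, no sham-operated group is among the samples, and the sources used here do not say whether each array holds 1 mouse, so p-values measure the spread between arrays, which may be technical in part.

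Heme oxygenases open the heme ring and release iron, carbon monoxide and biliverdin. Heme oxygenase 1 (Hmox1) is the inducible form and is known in the kidney for its rise after ischemia, toxins and heme itself, whereas heme oxygenase 2 (Hmox2) is made constitutively. Biliverdin reductases A and B (Blvra, Blvrb) reduce biliverdin to bilirubin, ferritin made of heavy and light chains (Fth1, Ftl1) stores the iron, ferroportin (Slc40a1) exports it, the transferrin receptor (Tfrc) takes it up, Alas1 catalyses the first step of heme synthesis in most tissues and is repressed by heme, and hemopexin (Hpx) binds free heme in plasma.

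The probes decide what each value means, so the sequences on which the results below turn are shown here, in probe orientation, with positions in mouse build mm9 from the array annotation. The only probe of Hmox1 lies at chr8:77624207-77624266 on the plus strand. Alas1 has 2 probes, at chr9:106136467-106136526 and chr9:106137803-106137862 on the minus strand, whose starts are 1336 bases apart; each is free of stop codons in 1 of the 3 forward reading frames over its 60 bases. Blvra also has 2 probes, at chr2:126922489-126922548 and chr2:126912896-126912955 on the plus strand, with starts 9593 bases apart; the first carries 1 RefSeq transcript accession and the second carries none and is annotated to a cDNA clone. The probe of Ftl1, at chr7:52714977-52715036 on the minus strand, carries 2 RefSeq transcript accessions, whose signals cannot be told apart. In the lines below, the first 30 bases of the Hmox1 and Blvra probes, both Alas1 probes whole, and the last 30 bases of the Ftl1 probe are printed, with capitals from the first ATG on in the Ftl1 probe.
Hmox1, probe A_51_P263965: atggttgtaagcatccatgttgactgacca
Alas1, probe A_51_P128929: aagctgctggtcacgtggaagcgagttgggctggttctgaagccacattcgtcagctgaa
Alas1, probe A_52_P129756: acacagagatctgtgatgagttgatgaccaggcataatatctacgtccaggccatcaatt
Blvra, probe A_51_P363103: agagaaagggcctggcttaaaaaggaacag
Blvra, probe A_52_P461976: atgtcacagtggcatgatgttgatattgta
Ftl1, probe A_52_P501733: cagccATGACCTCTCAGATTCGTCAGAATT

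A level here is the log2 of a gene's processed signal divided by the 75th percentile of its array, so that 0 is the brightness of that percentile, and levels are compared between arrays for 1 gene and not between genes. Between 57.4% and 67.4% of the gene names were well above background on an array, the scanner software's own test of a spot against its surroundings, and the 75th percentile ran from 147 to 358 intensity units. Each group lies on 1 slide of its own, so group and slide cannot be told apart. Scanning took 3 days, with Control and IRI sharing 1 of them, IRI+Hemin alone on 1 and the remaining 2 groups sharing 1, so scan day and group cannot be told apart in the comparisons other than IRI vs Control. All 8 markers of proximal tubule and all 6 of distal nephron and collecting duct were well above background on all 20 arrays; of 5 hepatocyte markers on the array, 4 were as well, and 1 (Cps1) was on none. The proximal tubule markers summed to 440 to 486 times the 75th percentile in Control, 426 to 442 in Hemin, 337 to 459 in IRI, 298 to 427 in IRI+Hemin and 324 to 374 in IPC+IRI, so IRI+Hemin and IPC+IRI lay below every Control array. Against Control, 2 of the 8 fell in IRI (Lrp2 and Cubn), 4 fell and 1 rose in IRI+Hemin, 3 fell and 1 rose in IPC+IRI, and 2 fell and 1 rose in Hemin, with Slc22a8 and Slc34a1 among those that fell in each of the last 3. The part of this shift in the changes described below was not tested. In bulk tissue, fewer cells of a type and less RNA per cell cannot be told apart. Comparisons that share a group (Control or IRI) share its arrays and are not independent of each other.

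Hmox1 was the member that changed most with ischemia. Its levels were 0.96, 2.14, 1.18 and 1.18 in Control and 5.69, 5.63, 6.14 and 6.67 in IRI. IRI+Hemin arrays read 5.38, 6.12, 6.61 and 5.09, IPC+IRI arrays 2.87, 4.65, 2.99 and 5.32, and Hemin arrays 1.69, 1.91, 2.20 and 1.92. Every array of the 3 ischemic groups lay above every Control and every Hemin array; IRI and IRI+Hemin overlapped, and IPC+IRI spread the widest, with replicates 1 and 3 low and replicates 2 and 4 high, the last of these above the lowest IRI+Hemin array. The probe was well above background on all 20 arrays and saturated on none.

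Hmox1 was 25.4-fold higher in IRI than in Control (log2 fold change 4.67 ± 0.47 SE, limma adjusted p = 5.24e-07), and this ran from 4.39 to 4.92 over the alternatives of processing. With preconditioning it was 4.21-fold lower than in IRI (-2.07 ± 0.47, adjusted p = 0.00179) with no overlap of the 8 arrays, and still 6.03-fold above Control (2.59 ± 0.47, adjusted p = 1.61e-04). With Hemin before ischemia it differed from IRI by -0.23 ± 0.47 (adjusted p = 0.715), a difference smaller than its error. Hemin alone gave 0.56 ± 0.47 above Control (1.48-fold, adjusted p = 0.363): 3 of the 4 Control arrays lay below all Hemin arrays, and Control replicate 2 lay within their range. Without Control replicate 2 the difference was 0.82 (adjusted p = 0.196). The rise with ischemia was 3.87 ± 0.47 after Hemin (IRI+Hemin vs Hemin, 14.6-fold, adjusted p = 6.74e-06), and its difference from the rise without Hemin did not pass the threshold (interaction -0.80 ± 0.66, adjusted p = 0.519). The preconditioned change from IRI was not called by SAM, a test of array data run at zero median false calls, nor was the difference of IPC+IRI from Control, and the former missed the threshold by the methods' t-test after Benjamini-Hochberg adjustment (adjusted p = 0.0568).

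**Figure D1:**
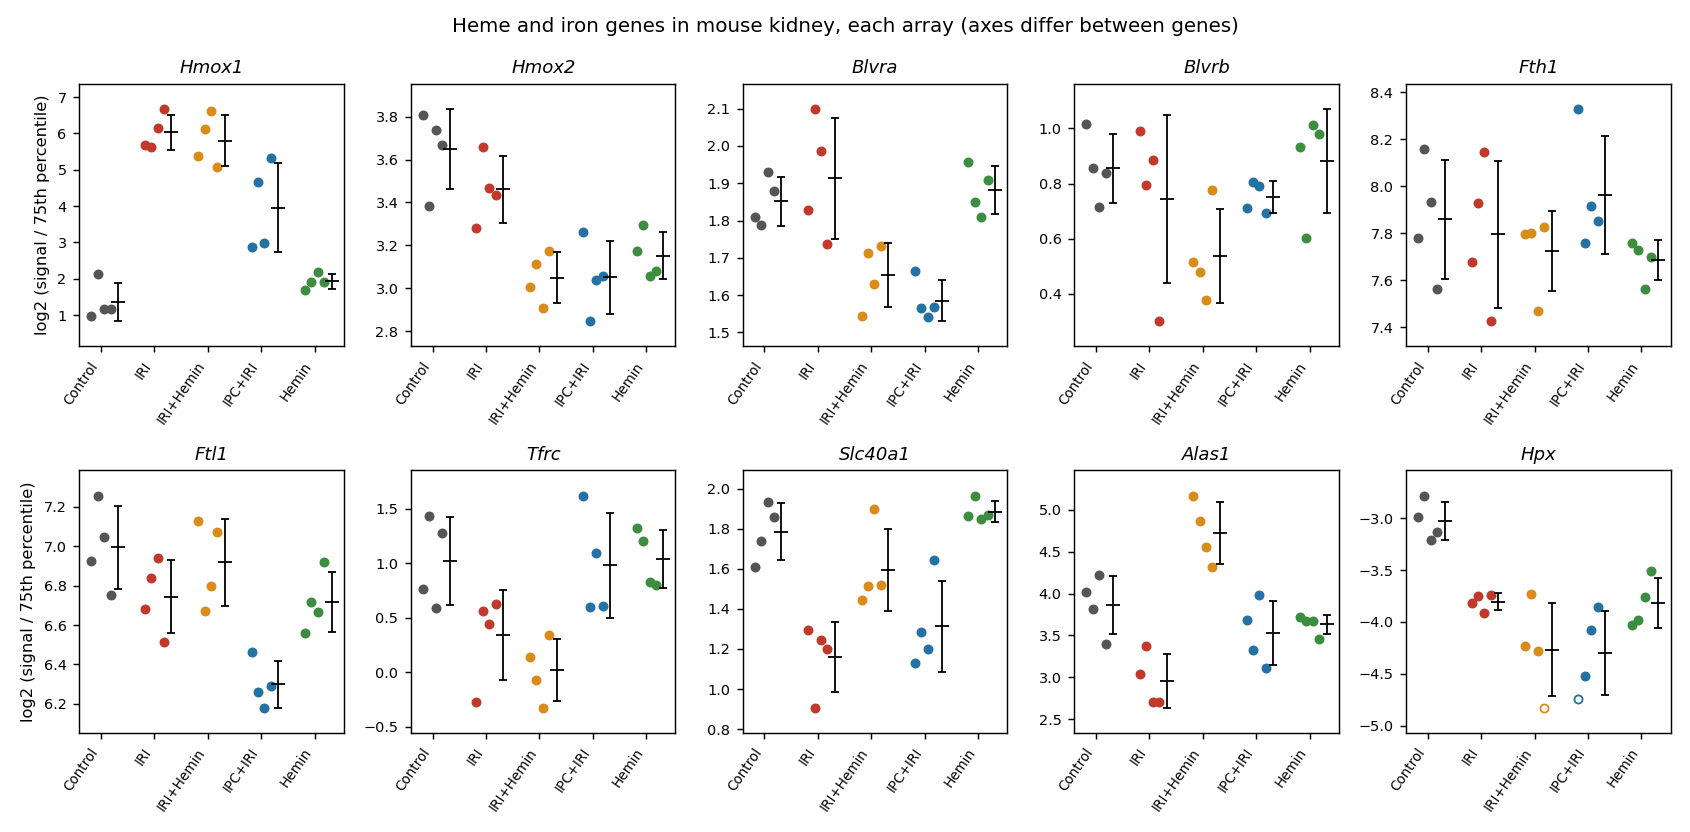
Level of each gene (y axis, log2 of signal over the array's 75th percentile, a separate axis for each gene) on the 4 arrays of each group (x axis); dots are arrays, open dots are not well above background, and bars give the group mean ± SD. Hmox1 lies between 5.09 and 6.67 on all IRI and IRI+Hemin arrays and at or below 2.20 on all Control and Hemin arrays, Alas1 is highest in IRI+Hemin and lowest in IRI, and Hpx is highest in Control.

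Some markers of white blood cells rose in the same ischemic groups. Of 3 neutrophil markers tested in IRI vs Control, 2 rose (S100a8 and S100a9) and 1 fell (Mpo), and the summed level of the 6 markers on the array was 0.359 to 0.66 in Control, 0.557 to 1.68 in Hemin, 2.48 to 8.16 in IRI, 2.22 to 9.45 in IRI+Hemin and 6.35 to 19.3 in IPC+IRI. Of 8 macrophage and monocyte markers tested, 2 rose (Cd14 and Cd68) and none fell. Emr1 had a log2 fold change of -0.86 (adjusted p = 0.115), with every IRI array (-3.27 to -2.82) below every Control array (-2.68 to -1.51), and Ccr2 one of -0.52 (adjusted p = 0.318). The 9 markers on the array summed to 4.81 to 7.16 in Control, 8.20 to 10.4 in IRI, 9.19 to 14.7 in IRI+Hemin, 7.67 to 28.6 in IPC+IRI and 5.45 to 6.82 in Hemin. The sums of the 3 ischemic groups overlapped for both lists. The part of these cells in the Hmox1 levels was not tested.

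Hmox2, the constitutive heme oxygenase, had its highest mean in Control and was lower in IRI+Hemin, IPC+IRI and Hemin. Its levels were 3.81, 3.38, 3.74 and 3.67 in Control, 3.28, 3.66, 3.47 and 3.44 in IRI, and 3.18, 3.29, 3.06 and 3.08 in Hemin. IRI+Hemin arrays ran from 2.91 to 3.17 and IPC+IRI arrays from 2.85 to 3.26, so both lay below every IRI array. Against IRI, Hmox2 was 1.33-fold lower both in IRI+Hemin (-0.41 ± 0.12, adjusted p = 0.00889) and in IPC+IRI (-0.41 ± 0.12, adjusted p = 0.00914). Hemin alone was 1.41-fold below Control (-0.50 ± 0.12, adjusted p = 0.00363), but without scaling between arrays the sign turned (0.069, adjusted p = 0.809). All 3 of these calls were lost without scaling between arrays, in the deposited log2 matrix, with normexp background correction and by SAM. IRI vs Control did not pass the threshold (-0.19 ± 0.12, adjusted p = 0.194), but it did with quantile normalization (-0.315, adjusted p = 0.0330).

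Blvra and Blvrb, the biliverdin reductases, moved little. Blvra, averaged over its 2 probes, had levels of 1.81, 1.79, 1.93 and 1.88 in Control and 1.83, 2.10, 1.99 and 1.74 in IRI, with no difference beyond the error (0.06 ± 0.09, adjusted p = 0.593). It read 1.54 to 1.73 in IRI+Hemin and 1.54 to 1.67 in IPC+IRI, all below the lowest IRI array. The differences from IRI were 1.20-fold (-0.26 ± 0.09, adjusted p = 0.0260) and 1.25-fold (-0.33 ± 0.09, adjusted p = 0.00684). Their signs depended on the processing: IRI+Hemin vs IRI turned to 0.11 without scaling between arrays and 0.071 with normexp correction, and IPC+IRI vs IRI turned to 0.24 in the deposited log2 matrix. The IRI+Hemin call was also lost without IRI replicate 2 (adjusted p = 0.0939), IRI replicate 3 (0.0724), IRI+Hemin replicate 1 (0.0780) or IRI+Hemin replicate 3 (0.0537), with the compared arrays alone (0.113) and by the methods' t-test after adjustment (0.0754). Neither call was made by SAM, and the IPC+IRI call was also lost with normexp correction (0.365), without scaling (0.974) and with the compared arrays alone (0.0514). Blvrb had group means between 0.54 ± 0.17 (SD, n = 4) in IRI+Hemin and 0.88 ± 0.19 in Hemin, and was called in none of the 7 comparisons of groups; its smallest adjusted p was 0.0503, for IRI+Hemin vs Hemin (-0.35 ± 0.14). Blvrb did pass the threshold in some alternatives, among them in that comparison without IRI+Hemin replicate 4 (0.0238) or Hemin replicate 2 (0.0225), in IRI+Hemin vs IRI without IRI replicate 4 (0.0233), and in IRI+Hemin vs Control without Control replicate 3 (0.04996) or IRI+Hemin replicate 4 (0.0252). In the other direction, Blvrb and Blvra were called higher in Hemin than in Control without scaling between arrays (0.591 and 0.595, adjusted p = 0.0272 and 0.0246) and in the deposited log2 matrix (adjusted p = 0.0334 and 0.0373), where the median over all genes was also higher, at 0.62 and 0.59.

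The probes of Blvra disagreed. The brighter one carried the mean of the gene and stayed between group means of 2.58 and 2.90. The dimmer one, which reads the cDNA clone, was well above background on 3 Control, 4 IRI and 3 IRI+Hemin arrays and on none of the 8 IPC+IRI and Hemin arrays. Against those groups it was tested only through the brighter group, so no p is given. With those groups set at the limit of detection, it was at least 3.77-fold higher in IRI than in IPC+IRI. Control stood 2.24-fold above Hemin on the same reckoning, which counts Control replicate 2 although it was not well above background. Between Hemin and Control the brighter probe differed by 0.04 ± 0.09 (limma adjusted p = 0.786). A bound is the mean of the brighter group over the mean, per array of the dimmer group, of the higher of the lowest signal well above background and the probe's own signal.

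Alas1, the first enzyme of heme synthesis, was highest in IRI+Hemin and lowest in IRI. Its levels were 4.02, 3.81, 4.22 and 3.40 in Control and 3.03, 3.37, 2.70 and 2.71 in IRI. They were 5.17, 4.87, 4.56 and 4.31 in IRI+Hemin, 3.68, 3.33, 3.98 and 3.11 in IPC+IRI, and 3.72, 3.68, 3.67 and 3.46 in Hemin. All IRI arrays lay below all Control arrays and all IRI+Hemin arrays lay above all arrays of the other 4 groups, while Control, Hemin and IPC+IRI overlapped.

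Alas1 was 1.87-fold lower in IRI than in Control (-0.91 ± 0.22, adjusted p = 0.00228) and 3.41-fold higher in IRI+Hemin than in IRI (1.77 ± 0.22, adjusted p = 1.34e-05). IRI+Hemin also stood 2.13-fold above Hemin (1.09 ± 0.22, adjusted p = 7.02e-04) and 1.82-fold above Control (0.86 ± 0.22, adjusted p = 0.00273). Hemin alone differed from Control by -0.23 ± 0.22 (adjusted p = 0.435). The change with ischemia therefore ran down without Hemin and up after it, and the interaction, 2.00 ± 0.31 (adjusted p = 7.43e-04), was the only one called among the members. It was called with each array left out and was lost in the deposited log2 matrix (adjusted p = 0.194); the fall in IRI was lost there (adjusted p = 0.294 at the highest over the alternatives) and without scaling between arrays, and the difference of IRI+Hemin from Hemin was lost in the matrix (adjusted p = 0.0680). By SAM the fall in IRI and the differences of IRI+Hemin from Hemin and from Control were not called. Both Alas1 probes shown above gave the pattern: 1.68 ± 0.22 and 2.10 ± 0.22 in IRI+Hemin vs IRI, -0.86 ± 0.22 and -1.08 ± 0.22 in IRI vs Control, and 1.94 ± 0.31 and 2.23 ± 0.32 in the interaction, each with a limma adjusted p of 0.00382 or less.

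In IPC+IRI, Alas1 was 1.48-fold higher than in IRI (0.57 ± 0.22, adjusted p = 0.0432), with overlapping arrays. This call did not hold without IRI replicate 1 (adjusted p = 0.0615), IRI replicate 3 (0.117), IRI replicate 4 (0.111), IPC+IRI replicate 1 (0.0976) or IPC+IRI replicate 3 (0.147), and the first probe alone missed the threshold (adjusted p = 0.0650). It was also lost with quantile normalization (0.0718), with no filter on dim genes (0.0586), with the compared arrays alone (0.0718), by SAM and by the methods' t-test before and after adjustment (0.0623 and 0.129), and 10 of 21 alternatives other than SAM kept it.

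**Figure D2:**
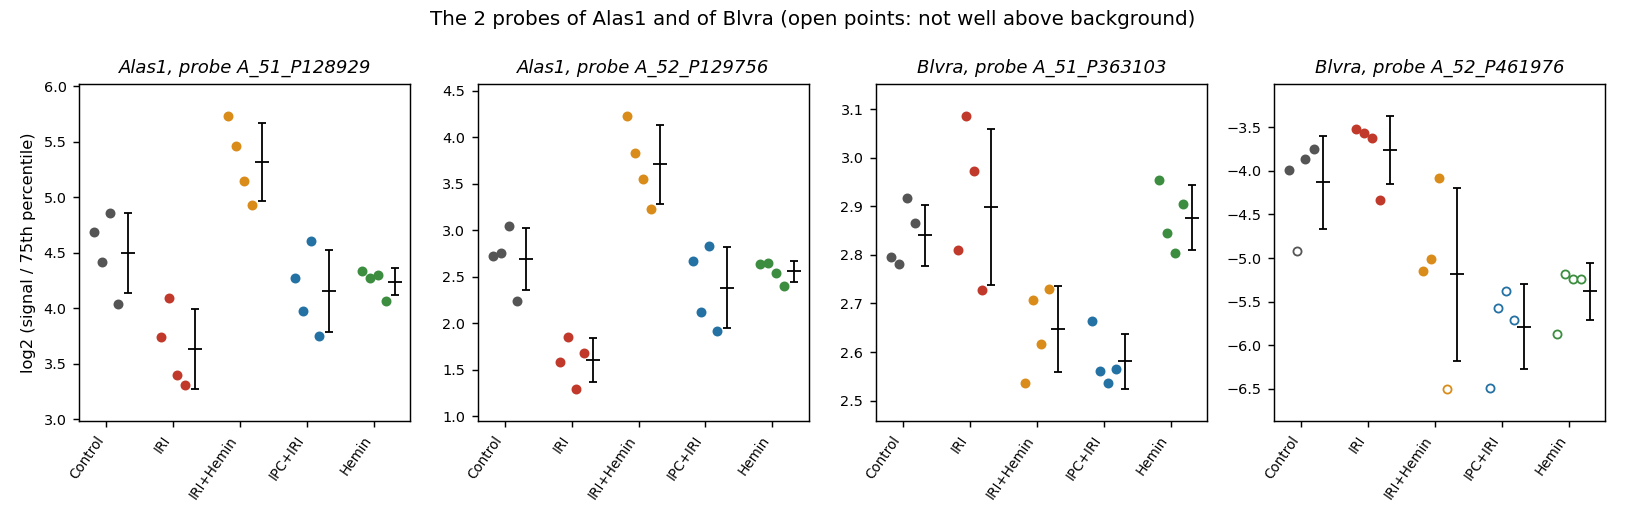
Level (y axis, log2 of signal over the array's 75th percentile) of each of the 2 probes of Alas1 and of Blvra on the 4 arrays of each group (x axis); dots are arrays, open dots are not well above background, and bars give the group mean ± SD. Both Alas1 probes are highest in IRI+Hemin and lowest in IRI, whereas the dim Blvra probe falls below detection in IPC+IRI and Hemin, where the bright one keeps group means of 2.58 and 2.88.

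Fth1 and Ftl1, the ferritin chains, were bright on all arrays. Fth1, the heavy chain that oxidises iron, had group means from 7.69 ± 0.09 (SD, n = 4) in Hemin to 7.96 ± 0.25 in IPC+IRI, all neighbouring groups overlapped, and it was called in none of the 7 comparisons (IRI vs Control -0.06 ± 0.16, Hemin vs Control -0.17 ± 0.16). This depended on the scaling: with quantile normalization Fth1 was called lower in IRI+Hemin than in IRI (-0.398, adjusted p = 0.00559) and in Hemin than in Control (-0.305, adjusted p = 0.0300), and without scaling between arrays it was called higher in IPC+IRI than in IRI (0.486, adjusted p = 0.0369). Ftl1, the light chain, read 6.92, 7.26, 7.05 and 6.75 in Control, 6.68, 6.84, 6.94 and 6.52 in IRI, and 6.46, 6.26, 6.18 and 6.29 in IPC+IRI. All IPC+IRI arrays lay below all arrays of the other groups. The difference was 1.36-fold from IRI (-0.45 ± 0.13, adjusted p = 0.0125) and 1.62-fold from Control (-0.70 ± 0.13, adjusted p = 3.06e-04); the first was lost with normexp correction and both without scaling between arrays (adjusted p = 0.646 and 0.303 at the highest) and by SAM. IRI vs Control did not pass the threshold (-0.25 ± 0.13, adjusted p = 0.131), but it did with quantile normalization (-0.321, adjusted p = 0.0124) and with the 75th percentile taken over the probes detected on all arrays (-0.331, adjusted p = 0.0235). The differences of IRI+Hemin from IRI (0.17 ± 0.13, adjusted p = 0.313) and of Hemin from Control (-0.28 ± 0.13, adjusted p = 0.113) did not pass the threshold, although without scaling between arrays Ftl1 was called higher in IRI+Hemin than in IRI (0.537, adjusted p = 0.0385) and with quantile normalization lower in Hemin than in Control (-0.332, adjusted p = 0.0139).

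Tfrc, which brings transferrin iron into cells, was lower in both ischemic groups without preconditioning. Its probe is printed 10 times on each array, and the 8 to 10 spots kept per array had a coefficient of variation of 3.19% to 8.12%. Its levels were 0.76, 1.43, 0.59 and 1.28 in Control, -0.27, 0.56, 0.44 and 0.63 in IRI, 0.14, -0.08, -0.33 and 0.34 in IRI+Hemin, 1.62, 0.60, 1.09 and 0.61 in IPC+IRI, and 1.32, 1.21, 0.82 and 0.80 in Hemin. IRI+Hemin lay below all Control and Hemin arrays, while IRI overlapped Control. IRI+Hemin was 2.03-fold lower than Hemin (-1.02 ± 0.26, adjusted p = 0.00380), a call kept in all alternatives but SAM, and 2.00-fold lower than Control (-0.997 ± 0.26, adjusted p = 0.00292), a call lost without scaling between arrays, in the deposited log2 matrix and by SAM.

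The other calls of Tfrc depended on single arrays and on the processing. IRI was 1.60-fold lower than Control (-0.68 ± 0.26, adjusted p = 0.0345), and the call was lost without Control replicate 2 (adjusted p = 0.109), Control replicate 4 (0.0925) or IRI replicate 1 (0.135). It was also lost with normexp correction (0.12), without scaling between arrays (0.126), in the deposited log2 matrix (0.154), with no filter on dim genes (0.0518), with only the compared arrays in the fit (0.0510), by SAM and by the methods' t-test before and after adjustment (0.0584 and 0.108), so that 11 of 21 alternatives other than SAM kept it. IPC+IRI was 1.56-fold higher than IRI (0.64 ± 0.26, adjusted p = 0.0499967), at the very threshold, and was lost without IRI replicate 1 (0.179), 2 (0.0507) or 3 (0.0690), or IPC+IRI replicate 1 (0.179) or 3 (0.1003). That call was kept in 7 of the 21 alternatives, among them the one without scaling between arrays and the deposited log2 matrix, and was lost, among others, with normexp correction (0.0743), quantile normalization (0.0504), the compared arrays alone (0.0953) and the replicate block (0.0695), by SAM and by the methods' t-test before adjustment (0.0909). IRI+Hemin and IRI overlapped and differed by -0.32 ± 0.26 (adjusted p = 0.322).

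Slc40a1, the iron exporter ferroportin, fell with ischemia and was less low after Hemin. Control arrays read 1.61, 1.74, 1.93 and 1.86, IRI arrays 1.29, 0.91, 1.24 and 1.20, and IRI+Hemin arrays 1.45, 1.51, 1.90 and 1.52. IPC+IRI arrays ran from 1.13 to 1.64 and Hemin arrays from 1.85 to 1.96. IRI lay below Control, Hemin and IRI+Hemin with no overlap. It was 1.54-fold lower than Control (-0.62 ± 0.13, adjusted p = 6.51e-04), and IRI+Hemin was 1.35-fold higher than IRI (0.43 ± 0.13, adjusted p = 0.0114); by the methods' t-test after Benjamini-Hochberg adjustment the second missed the threshold (0.0522). IPC+IRI stood at 0.15 ± 0.13 from IRI (adjusted p = 0.352) and 1.39-fold below Control (-0.47 ± 0.13, adjusted p = 0.00483). Without scaling between arrays and in the deposited log2 matrix, the differences of IRI and of IPC+IRI from Control were not called. The first stayed at -0.50 in both, whereas the second went to -0.034. Neither was called by SAM, nor was the difference of IRI+Hemin from IRI.

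Hpx, the plasma scavenger of heme that the liver makes in quantity, was dim in kidney and highest in Control. Control arrays read -2.99, -2.79, -3.21 and -3.13, IRI arrays -3.82, -3.75, -3.91 and -3.74, and Hemin arrays -4.03, -3.98, -3.76 and -3.51. IRI+Hemin ran from -4.83 to -3.73 and IPC+IRI from -4.74 to -3.86, with 3 of 4 arrays well above background in each, and all Control arrays lay above all other arrays. Against Control, the level was 1.71-fold lower in IRI (-0.78 ± 0.21, adjusted p = 0.00480), 1.73-fold lower in Hemin (-0.79 ± 0.21, adjusted p = 0.00728), 2.36-fold lower in IRI+Hemin (-1.24 ± 0.21, adjusted p = 8.04e-05) and 2.41-fold lower in IPC+IRI (-1.27 ± 0.21, adjusted p = 6.91e-05). These differences depended on the background correction and on the scaling. With normexp and an offset of 50 none of the 4 was called and IRI vs Control was 0.031. Without scaling between arrays, the call in IPC+IRI held and those in IRI (-0.655, adjusted p = 0.126), Hemin (-0.223, adjusted p = 0.561) and IRI+Hemin (-0.754, adjusted p = 0.0546) were lost, as they were in the deposited log2 matrix, and the call in IRI was also lost with quantile normalization (adjusted p = 0.139). Between the other groups Hpx was not called; it was called against IRI with quantile normalization (adjusted p = 0.0338 in IRI+Hemin and 0.0187 in IPC+IRI), and with IRI+Hemin replicate 2 left out (against IRI 0.0176, against Hemin 0.0204) or IPC+IRI replicate 4 left out (against IRI 0.0234). Of the hepatocyte markers, 4 of the 5 on the array were tested. Alb rose and Ttr fell in IRI vs Control (adjusted p = 0.0167 and 0.0256), and none was called in Hemin vs Control. Against Control, Ttr was 3.80-fold lower in IRI+Hemin (adjusted p = 3.09e-04) and 3.60-fold lower in IPC+IRI (4.61e-04), Apoa2 was 1.93-fold lower in IRI+Hemin (8.39e-04), and Fgb was 3.59-fold and 2.20-fold higher (0.00206 and 0.0392). The summed level of the 5 was 1.92 to 2.61 in Control, 1.66 to 2.07 in IRI, 1.21 to 4.38 in IRI+Hemin, 1.70 to 2.08 in IPC+IRI and 1.82 to 2.06 in Hemin, and the part of hepatocyte RNA in the levels of Hpx was not tested.

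**Figure D3:**
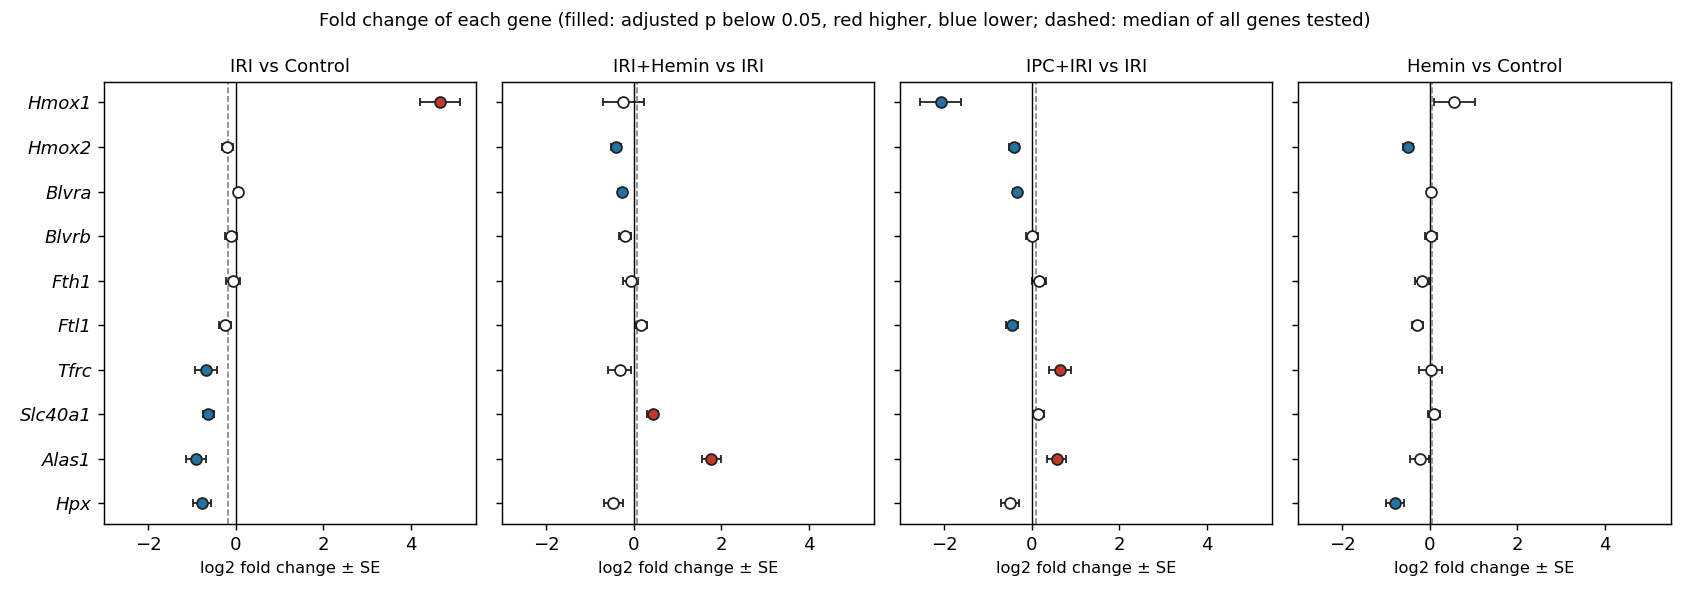
Log2 fold change ± SE (x axis) of each of the 10 genes (y axis) in 4 comparisons; filled points passed an adjusted p of 0.05 (red higher, blue lower), and dashed lines mark the median of all genes tested. Hmox1 is at 4.67 in IRI vs Control and -2.07 in IPC+IRI vs IRI, Alas1 at 1.77 in IRI+Hemin vs IRI, and the other points lie within 1 of 0.

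Many genes changed in these comparisons, so the members called are given beside the share of all genes called the same way. In IRI vs Control, 1 member was higher (Hmox1) and 4 were lower (Tfrc, Slc40a1, Alas1, Hpx), where 17.0% of 17719 genes tested were higher and 33.7% lower; median log2 fold changes were -0.22 for the members and -0.17 for all genes. In IRI+Hemin vs IRI, 2 members were higher and 2 lower, against 26.1% and 18.0% of genes. In IPC+IRI vs IRI, 2 were higher and 4 lower, against 26.0% and 17.7%, with medians of -0.16 over members and 0.09 over all genes. Hemin vs Control had no member higher and 2 lower (Hmox2 and Hpx), against 18.4% and 17.5%. These directions depended on the scaling. Without scaling between arrays, Hemin vs Control had 3 members higher (Blvra, Blvrb and Slc40a1, at 0.595, 0.591 and 0.666) and none lower, where the median over all genes was 0.62 and 94.8% of the genes called were higher. IRI vs Control then had Hmox1 higher and none lower, IRI+Hemin vs IRI 3 higher and none lower, and IPC+IRI vs IRI 3 higher and 1 lower. Of all genes called without scaling in these comparisons, 36.7%, 91.5% and 90.9% were higher, in that order. The medians over all genes were -0.05, 0.45 and 0.41.

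In IPC+IRI vs Control, 1 member was higher and 5 were lower (23.1% and 32.6% of genes). IRI+Hemin vs Control gave 2 higher, Hmox1 and Alas1, and 3 lower (24.3% and 33.1%), and IRI+Hemin vs Hemin the same 2 higher, with Blvra and Tfrc lower (16.4% and 27.8%). In the interaction, Alas1 was the 1 member called, higher, where 5.83% of 19064 genes were higher and 1.95% lower. The call of Blvra in IRI+Hemin vs Hemin (-0.23 ± 0.09, adjusted p = 0.0474) was lost with each of 7 arrays left out, all but IRI+Hemin replicate 4, with adjusted p from 0.0555 (Hemin replicate 3) to 0.129 (IRI+Hemin replicate 1). Its call in IPC+IRI vs Control (-0.27 ± 0.09, adjusted p = 0.0171) was lost without Control replicate 3 (0.0509). It was also lost with normexp correction (0.418) and with the compared arrays alone (0.0537). The sign of this difference turned to 0.17 without scaling between arrays and to 0.42 in the deposited log2 matrix. By SAM, the calls of members kept in the 7 comparisons of groups were those of Hmox1 and Hpx in IRI vs Control, of Alas1 in IRI+Hemin vs IRI, and of Hmox1 in IRI+Hemin against Hemin and against Control.

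Around these members, 66 other genes of heme and iron metabolism were read as 6 lists. In IRI vs Control, 14 of the 59 tested rose and 9 fell, where 17.0% of all genes tested were higher and 33.7% lower. In IRI+Hemin vs IRI, 9 of 61 rose and 12 fell (26.1% and 18.0% of all genes), in IPC+IRI vs IRI 9 of 62 rose and 14 fell (26.0% and 17.7%), and in Hemin vs Control 7 of 62 rose and 9 fell (18.4% and 17.5%). The counts of the single lists below are read against the same shares. Median log2 fold changes over these genes lay between -0.02 and 0.08 in the 4 comparisons.

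The list of Hmox1 regulators held the largest change of the named pathway genes, that of Maff. Of 8 tested, 5 rose in IRI vs Control and none fell, with a median of 0.84 against -0.17 over all genes. Maff and Mafk, small Maf proteins that pair with Nrf2 and with Bach1 on DNA, were 63.3-fold (5.98 ± 0.27, adjusted p = 8.23e-11) and 5.04-fold higher (2.33 ± 0.17, adjusted p = 1.25e-08); over the alternatives the log2 fold change of Maff ran from 4.66 to 6.21. Hif1a, a subunit of the hypoxia-inducible factor, was 2.11-fold higher in IRI (adjusted p = 7.37e-06). Nfe2l2, which encodes Nrf2, the main activator of Hmox1, rose by 0.62 ± 0.16 (adjusted p = 0.00288) with no overlap. Bach1, the heme-binding repressor of Hmox1, was 2.09-fold higher (1.07 ± 0.31, adjusted p = 0.00755), with overlapping arrays.

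After Hemin or preconditioning, some of these regulators were higher than in IRI and others lower. In IRI+Hemin vs IRI, Bach1 was 3.30-fold higher (1.72 ± 0.31, adjusted p = 2.78e-04), Keap1, which holds Nrf2 for breakdown, 2.22-fold higher (1.15 ± 0.17, adjusted p = 6.29e-05), Mafk 2.14-fold lower (-1.10 ± 0.17, adjusted p = 7.21e-05) and Hif1a 1.97-fold lower (-0.98 ± 0.14, adjusted p = 4.30e-05). In IPC+IRI vs IRI, Bach1 was 2.85-fold higher (adjusted p = 8.14e-04), Keap1 1.95-fold higher (0.97 ± 0.17, adjusted p = 2.70e-04), Hif1a 2.70-fold lower (-1.43 ± 0.14, adjusted p = 2.58e-06) and Mafk 1.74-fold lower (-0.80 ± 0.17). Mafg, another small Maf protein, was 1.25-fold and 1.26-fold higher in IRI+Hemin and IPC+IRI (adjusted p = 0.0179 and 0.0149). By SAM, Bach1 was not called in either comparison, nor was Mafk in IRI+Hemin vs IRI. Nfe2l2 was lower in IPC+IRI than in IRI (-0.64 ± 0.16). Maff differed between IRI and neither IRI+Hemin (-0.46 ± 0.27) nor IPC+IRI (-0.32 ± 0.27) beyond the threshold.

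**Figure D4:**
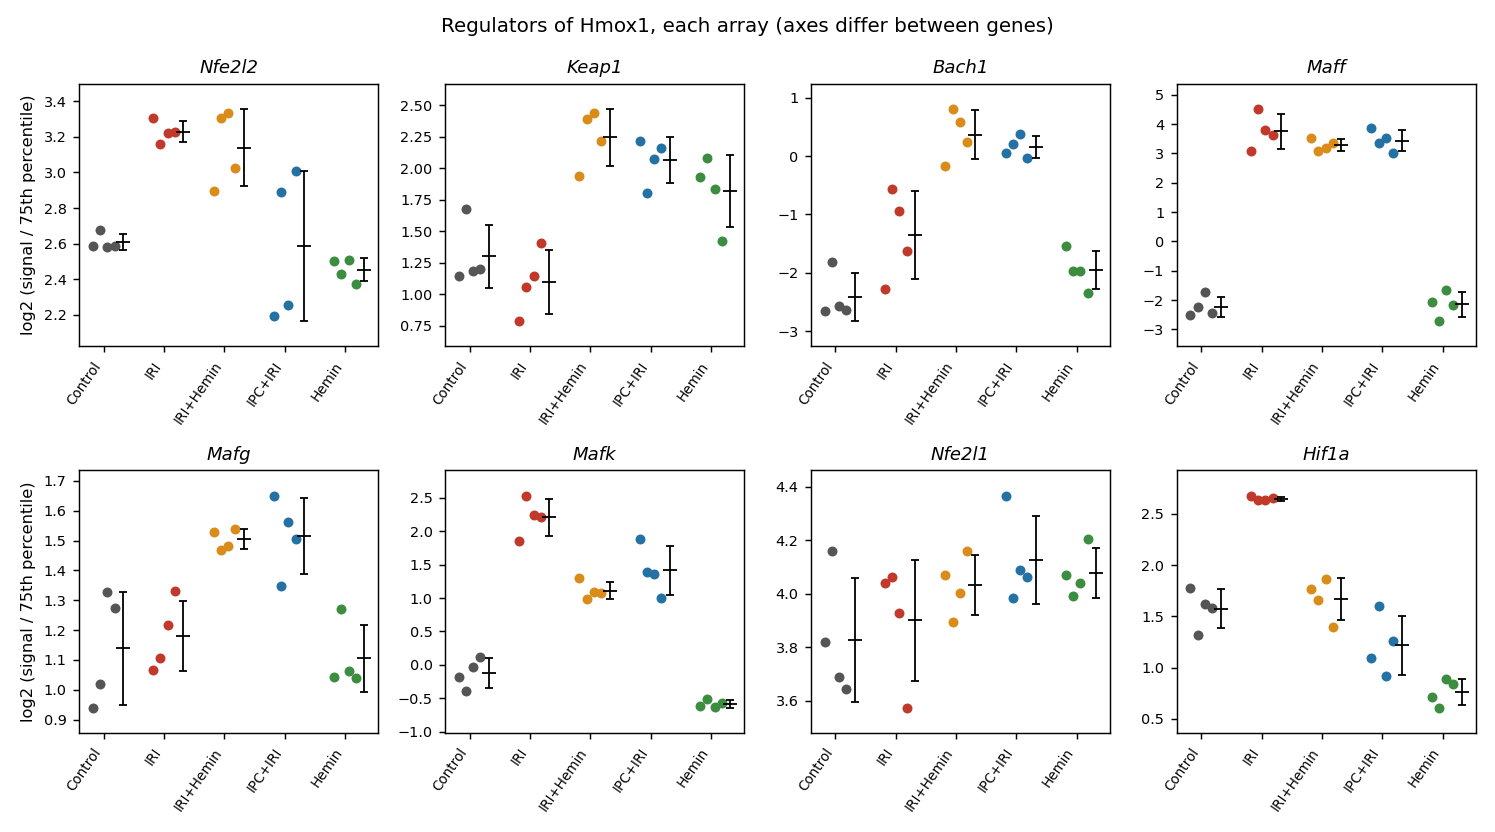
Level (y axis, log2 of signal over the array's 75th percentile, a separate axis for each gene) of the 8 regulators of Hmox1 on the 4 arrays of each group (x axis); dots are arrays and bars give the group mean ± SD. Maff has group means of 3.30 to 3.76 in the ischemic groups and -2.23 and -2.15 in Control and Hemin, and Bach1 is higher in IRI+Hemin and IPC+IRI than in IRI with no overlap.

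Among genes of iron uptake, release and mobilisation, Lcn2, a siderophore-binding protein released by injured tubules, was 33.3-fold higher in IRI than in Control (5.06 ± 0.43, adjusted p = 1.04e-07) and 4.18-fold lower in IPC+IRI than in IRI (-2.06 ± 0.43, adjusted p = 0.00111). Its level was 1.41 ± 0.59 (SD, n = 4) in IRI, 0.08 ± 0.67 in IRI+Hemin and -0.66 ± 0.38 in IPC+IRI. Slc39a14, a transporter of zinc and of iron not bound to transferrin, was 3.1-fold higher in IRI than in Control (1.63 ± 0.25, adjusted p = 3.72e-05). These 3 calls held in all alternatives, over which the log2 fold change of Lcn2 ran from 2.89 to 5.35 in IRI vs Control and from -2.32 to -1.73 in IPC+IRI vs IRI, and that of Slc39a14 from 1.21 to 1.75.

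Ceruloplasmin (Cp), the ferroxidase that works with ferroportin, stood at 0.28 ± 0.21 in IRI, 1.99 ± 0.15 in IRI+Hemin and 1.54 ± 0.70 in IPC+IRI (SD, n = 4). It was 3.27-fold higher in IRI+Hemin than in IRI (adjusted p = 5.82e-05) and 2.39-fold higher in IPC+IRI (adjusted p = 7.31e-04). Mitochondrial ferritin (Ftmt) went the other way, 3.65-fold lower in IRI+Hemin (adjusted p = 5.17e-05) and 3.01-fold lower in IPC+IRI (adjusted p = 2.09e-04) than in IRI, and 2.48-fold lower in Hemin than in Control (adjusted p = 0.00155); it was dim, with 3 of 4 arrays well above background in IRI+Hemin and in IPC+IRI. The metalloreductase Steap3 was 2.58-fold lower in IRI+Hemin and 2.13-fold lower in IPC+IRI than in IRI (adjusted p = 6.82e-05 and 4.60e-04), with 2 and 1 arrays well above background, and Steap2 was 2.16-fold lower in IPC+IRI (adjusted p = 2.15e-05). Some of these calls depended on the processing: that of Ftmt in Hemin was lost without scaling between arrays (adjusted p = 0.0776), those of Ftmt and Steap2 in IPC+IRI in the deposited log2 matrix (0.10 and 0.0690), and those of Cp and Steap3 in IPC+IRI by SAM. The calls of Cp, Ftmt and Steap3 in IRI+Hemin vs IRI held throughout, with log2 fold changes from 1.60 to 2.33, from -2.12 to -0.75 and from -1.53 to -0.73. Steap2 and Steap3 also had lower means in Hemin than in Control. These were -0.82 ± 0.17 against 0.03 ± 0.27 for Steap2 and -5.08 ± 0.21 against -4.13 ± 0.50 for Steap3 (SD, n = 4).

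Other named changes of that list also depended on the processing. Melanotransferrin (Mfi2) was well above background on no IRI array and on all 4 IPC+IRI arrays. It passed the filter of IPC+IRI vs IRI only through IPC+IRI, so its p is not given. It was at least 2.40-fold higher in IPC+IRI, but its log2 fold change turned to -0.31 with normexp correction. Pcbp2, an iron chaperone and RNA-binding protein, was 2.30-fold lower in Hemin than in Control (adjusted p = 0.0106), where Hemin replicate 1 read 0.585 and the other 3 arrays between 2.73 and 2.88; the call was lost in 6 of 22 alternatives.

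In heme synthesis, 2 of 8 genes fell in IRI vs Control (Ppox and Uros) and none rose, while 2 rose in IRI+Hemin vs IRI (Uros and Fech, the ferrochelatase that inserts iron) and none fell. The median of the list was -0.13 and 0.06 in these comparisons, against -0.17 and 0.08 over all genes. Alas2, the erythroid counterpart of Alas1, was 3.02-fold lower in IPC+IRI than in IRI (-1.60 ± 0.52, adjusted p = 0.0191), and 3 of the 4 markers of red blood cells tested there fell (Hba-a1, Hbb-b1 and Alas2) while Slc4a1 rose. The summed level of the 8 red cell markers on the array was 14.4 to 58.6 in IPC+IRI, 78.2 to 98.7 in IRI and 34.3 to 142 in Control, and the part of blood in the change of Alas2 was not tested. The Alas2 call was lost without IPC+IRI replicate 1 (adjusted p = 0.0759) or 2 (0.0502), in the deposited log2 matrix (-0.78, adjusted p = 0.215), by SAM and by the methods' t-test after Benjamini-Hochberg adjustment (0.0658).

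Of the other lists, heme and hemoglobin transport had 3 of 10 genes higher and 1 lower in IRI vs Control. Mfsd7b, an earlier symbol of the heme exporter Flvcr1, was 2.72-fold higher (adjusted p = 6.85e-05), and Fabp1, a fatty acid carrier that also binds heme, was 2.36-fold lower in IRI (adjusted p = 0.0100) and 2.43-fold higher in IRI+Hemin than in IRI (adjusted p = 0.00971), both lost with normexp correction. The first was also lost with quantile normalization (adjusted p = 0.0706), and the second and the rise of Mfsd7b were not called by SAM. Iron sensing and hepcidin control had 2 of 8 higher and 2 lower in IRI vs Control, and Hamp2, 1 of the mouse hepcidins, was 2.09-fold lower (adjusted p = 5.18e-04) with 2 of 4 IRI arrays well above background and a change of 0.009 with normexp correction, and was not called by SAM. Mitochondrial iron and iron-sulfur cluster genes had 1 of 12 higher and 2 lower in IRI vs Control, and no gene of this list changed 2-fold without overlap in the 4 comparisons.

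The genes whose levels followed those of Hmox1 most closely over the 20 arrays, among 14533 well above background on all of them, were Cars (Pearson r = 0.977), Eif4ebp1 (0.965), Adfp (0.965), Aars (0.964) and Tsr1 (0.964). Cars and Aars encode transfer RNA synthetases, Eif4ebp1 an inhibitor of translation initiation, Adfp a lipid droplet protein and Tsr1 a ribosome assembly factor. Like Hmox1, Adfp had its highest mean in IRI (7.15 ± 0.26, SD, n = 4), followed by IRI+Hemin (6.86 ± 0.93) and IPC+IRI (6.16 ± 0.89), with 3.89 ± 0.31 in Control and 3.99 ± 0.02 in Hemin. These correlations describe arrays that share 5 group means and were chosen as the highest of all.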

How the data were processed

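Kidney RNA was measured on 20 one-colour Agilent arrays, 4 per group, grouped by the sample labels. The intensity values are scanner output that the authors made with Agilent Feature Extraction 9.5.3.1 per the file headers, which subtracts a background from each spot and corrects trends over the array. The log2 values are the authors' deposited matrix, with no scaling between arrays; 100% of its values for probes with 1 spot lay within 0.001 of the log2 processed signal and 18.1% were blank, and its column medians ran from 5.989 to 6.958. RNA had an integrity number of at least 8.

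Spots with the software's marks for non-uniformity or for being an outlier were dropped, the copies of a probe were averaged, signals were divided by the 75th percentile of their array, and the log2 of the mean over a gene name's probes was taken. A gene was tested with at most 1 missing value and at least 3 of 4 arrays of either group well above background. In R 4.3.3 (packages limma 3.58.1 and data.table version 1.17.8), limma was fitted to all 20 arrays with 5 group means and 15 residual degrees of freedom, and p was adjusted by Benjamini-Hochberg over all genes of each comparison; calls needed an adjusted p under 0.05. No fold cutoff was applied.

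All 10 members and their probes are named with their values. Other pathway genes are named where called, changed at least 2-fold and not overlapping in IRI vs Control, IRI+Hemin vs IRI, IPC+IRI vs IRI or Hemin vs Control. Nfe2l2, Mafg, Ppox, Uros, Fech, Slc4a1, the marker genes and further changes of Bach1, Keap1, Hif1a, Mafk, Steap2 and Steap3 were named after their values were seen. The 5 genes most like Hmox1 are those with the highest Pearson r. The members and lists were chosen with earlier results of these data known. Alternatives varied the background correction, the scaling, the summary of probes, the filter, the source of values, the arrays in the fit, a replicate block, the arrays left out and the test (SAM and the methods' t-test). The precision is limited by the number of arrays. The tests were checked on simulated data. In the 7 comparisons of groups, limma recovered 64% to 82% of the simulated 2-fold changes and SAM 20% to 44%. False calls made up 2.89% to 6.86% of the limma calls and 0% to 2.5% of the SAM calls. A change of 2-fold or less that SAM did not call can therefore be one that it misses. Array gene names can be older than current symbols.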

Additional observations from a re-analysis of the deposited data

Results flagged for a closer look

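Alas1 changed with ischemia in opposite directions with and without Hemin: the difference of the changes was 2.00 (1.999 on the log2 scale before rounding, adjusted p = 7.43e-04 by limma), with all 4 IRI arrays below all Control arrays and all 4 IRI+Hemin arrays above all Hemin arrays.

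Of 50 groups of 4 arrays (10 genes in 5 groups), 3 held 1 array far from the other 3, and chance marks about 1 in 20 groups. These were Fth1 in IRI+Hemin replicate 3, at 7.47 where the others read 7.80 to 7.83, Slc40a1 in IRI+Hemin replicate 3, at 1.90 where the others read 1.45 to 1.52, and Slc40a1 in Hemin replicate 2, at 1.96 where the others read 1.85 to 1.87. Without IRI+Hemin replicate 3, Slc40a1 was lower in IRI+Hemin than in Hemin (-0.39, adjusted p = 0.0234), which it was not with all arrays (-0.29, adjusted p = 0.0757).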

How the results depend on the processing

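The calls of Hmox1 in IRI vs Control and of Alas1 in IRI+Hemin vs IRI held in all alternatives. Of the 26 changes of pathway genes chosen by the naming rule, 11 were called in all alternatives. Numbers of members called moved as follows. In IRI vs Control, 5 became 3 with normexp correction, 1 without scaling between arrays, 1 in the deposited log2 matrix and 2 by SAM. In IRI+Hemin vs IRI, 4 became 2 in the matrix, 1 by SAM and 2 by the methods' t-test after adjustment. In IPC+IRI vs IRI, 6 became 2 with normexp, 3 in the matrix, 3 with the compared arrays alone, 0 by SAM and 3 by the adjusted t-test. In IPC+IRI vs Control, 6 became 3 without scaling, 2 in the matrix and 0 by SAM. In Hemin vs Control, 2 became 0 with normexp, 4 with quantile normalization and 0 by SAM, and the 2 lower (Hmox2 and Hpx) gave way to 3 higher without scaling (Blvra, Blvrb and Slc40a1) and 2 higher in the matrix (Blvra and Blvrb). In IRI+Hemin vs Hemin, 4 became 2 in the matrix and 1 by SAM. In IRI+Hemin vs Control, 5 became 2 without scaling, 8 with quantile normalization, 2 in the matrix and 1 by SAM. In the interaction, 1 became 0 in the matrix. With 1 array left out, members called ranged from 4 to 5 in IRI vs Control, 3 to 5 in IRI+Hemin vs IRI, 4 to 7 in IPC+IRI vs IRI, 5 to 6 in IPC+IRI vs Control and in IRI+Hemin vs Control, and 3 to 5 in IRI+Hemin vs Hemin, and stayed at 2 in Hemin vs Control and 1 in the interaction.

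Signs turned for Hpx in IRI vs Control (0.031 with normexp), for Hmox2 in Hemin vs Control (0.069 without scaling and in the matrix), and for Blvra: in IRI+Hemin vs IRI to 0.071 with normexp, 0.11 without scaling and 0.35 in the matrix, in IPC+IRI vs IRI to 0.24 in the matrix, in IPC+IRI vs Control to 0.17 without scaling and 0.42 in the matrix, in Hemin vs Control to -0.61 with the mean of log2 values and -1.25 by the dim probe alone, and in IRI+Hemin vs Hemin to 0.043 with normexp and 0.20 by the dim probe. The cause was not tested, other than that the dim probe differs from the bright one. Without scaling, the median over all genes ran from -0.23 to 0.62 in the 7 comparisons, against -0.17 to 0.09 with it, and 27.2% to 94.8% of calls were higher, against 33.5% to 59.5%. With normexp, 3134 to 6813 genes were called, against 6679 to 10630.

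Replicate numbers are those of the sample titles. Of 40 same-numbered pairs of arrays, 7 had deviations from group means that correlated above 0.1 (range -0.381 to 0.211). Only 2 of 20 arrays lay closest to their own number, so no pairing by number was seen. With the replicate block, 5 members were called in IPC+IRI vs IRI and 3 in IRI+Hemin vs Hemin, and no other count moved. The slide as a random block could not be fitted, since each slide holds 1 group.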
